A study of Mus musculus with 12 samples.

Results

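The 10 genes described here encode writers, erasers and readers of N6-methyladenosine (m6A), the most common internal methyl mark of messenger RNA. They were taken by symbol from a fixed list and matched to 1 Ensembl identifier each among the 55401 identifiers counted. All 10 passed the filter on low counts, as did 17569 genes in all. RNA was sequenced from Neuro-2a cells, an established mouse neuroblastoma line, in 3 groups of 4 libraries numbered as biological replicates 1 to 4. Every group received 1 µg of pCAGGs-linkB-IRES-GFP, a plasmid that expresses green fluorescent protein, and 3 µg of plasmid for artificial microRNAs built on miR30. The latter was pCAG-miR30-scramble in the control group (miScramble), a pool of 3 plasmids against mouse Rbmx (miRbmx), or a pool of 2 plasmids against mouse Rbmxl1 (miRbmxl1). GFP-positive cells were sorted 48 hours after this transient transfection, so the sort marks uptake of the GFP plasmid and not of the microRNA plasmid itself. No gene was deleted, and some of each target transcript remained.

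The m6A mark is placed in the nucleus by a complex in which METTL3 carries the catalytic activity and METTL14 positions the RNA, while WTAP, ZC3H13 and RBM15 anchor the complex and direct it to its sites. FTO and ALKBH5 are demethylases that can remove the mark. Proteins with a YTH domain bind it: YTHDC1 in the nucleus, where it acts on splicing and export, and the YTHDF proteins in the cytoplasm, where they bear on decay and translation. RBMX, also named hnRNPG, binds RNA that m6A makes accessible, and Rbmxl1 is a retrocopy of Rbmx.

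Each library had between 43096846 and 52241198 reads in genes. Rbmx was at 67.7 ± 7.15 CPM (the usual abbreviation of read counts scaled to a common library size, here after TMM scaling; mean ± SD, n = 4) in scramble and 27.6 ± 4.96 CPM in Rbmx knockdown. Rbmxl1 was at 34.1 ± 2.21 CPM in scramble and 14.2 ± 1.99 CPM in Rbmxl1 knockdown. Rbmx rose in Rbmxl1 knockdown, to 86.3 ± 3.51 CPM (adjusted p 0.0165). Of the 50-base words of the longest transcript, 0.98% for Rbmx and 78.98% for Rbmxl1 also occur in other annotated genes, the latter mainly in Gm7324 (74.18%). Of 10 neural crest and neuronal markers, 9 had a mean of at least 1 CPM, Nefm being the exception, and their summed level overlapped between the groups (2375 to 2697 CPM in scramble, 2529.8 to 3051 in Rbmx knockdown and 2523 to 2829.5 in Rbmxl1 knockdown). The libraries of 2 of the 10 lay apart from scramble in Rbmx knockdown and of 1 in Rbmxl1 knockdown, as did those of 8.07% and 5.67% of all genes. Mycn was at 10.5 to 12.6 CPM in scramble, 14.6 to 22.6 in Rbmx knockdown and 14.1 to 24.0 in Rbmxl1 knockdown. Hand2 was at 331 to 369.6, 375 to 399.7 and 365 to 446 CPM in the same order, and the part of both in the results was not tested. Of 11 markers of other cells Pecam1 was highest (4.62 to 7.82 CPM), Cd68 was at 0.453 to 1.48 CPM, Epcam and Aqp4 were at 0 in every library, and the sum of all 11 was 6.26 to 9.14 CPM over the 12 libraries. Replicates 1 and 2 of every group stood apart from replicates 3 and 4 across all genes, and the replicate number is a block in the model used here. In bulk RNA, fewer cells with a transcript and less transcript per cell cannot be told apart.

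The 10 genes were first ordered by their level per length in scramble, in CPM per kilobase of merged annotated exons. Alkbh5 was the most abundant, at 73.1 ± 9.03 CPM per kilobase (SD, n = 4), and its lowest library, at 65.2, lay above every library of any other of the 10. Next came the cytoplasmic readers Ythdf1 (36.2 ± 3.65) and Ythdf2 (31.4 ± 1.93) and the adaptor Rbm15 (26.6 ± 4.72). These 3 could not be separated in neighbouring pairs, because their ranges over the 4 libraries overlapped. Wtap (13 ± 0.473) and Fto (9.82 ± 0.476) followed, each apart from its neighbours. Zc3h13 (6.27 ± 0.599) overlapped Ythdc1 (5.79 ± 0.213). The methyltransferase subunits were lowest, Mettl14 at 4.80 ± 0.212 and Mettl3 at 4.23 ± 0.516 CPM per kilobase, and overlapped each other. Among the 17540 tested genes with an annotated length, Mettl3 stood at percentile 52.1 and Alkbh5 at percentile 97.2. The middle and the end of this order depend on the length used. Per kilobase of the longest annotated transcript, Fto was at 27.2 ± 1.32 and Mettl3 at 9.94 ± 1.21, above Zc3h13 (6.40 ± 0.612) and Mettl14 (4.95 ± 0.218), while Alkbh5, Ythdf1, Ythdf2 and Rbm15 remained the first 4 in the same order.

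**Figure D1:**
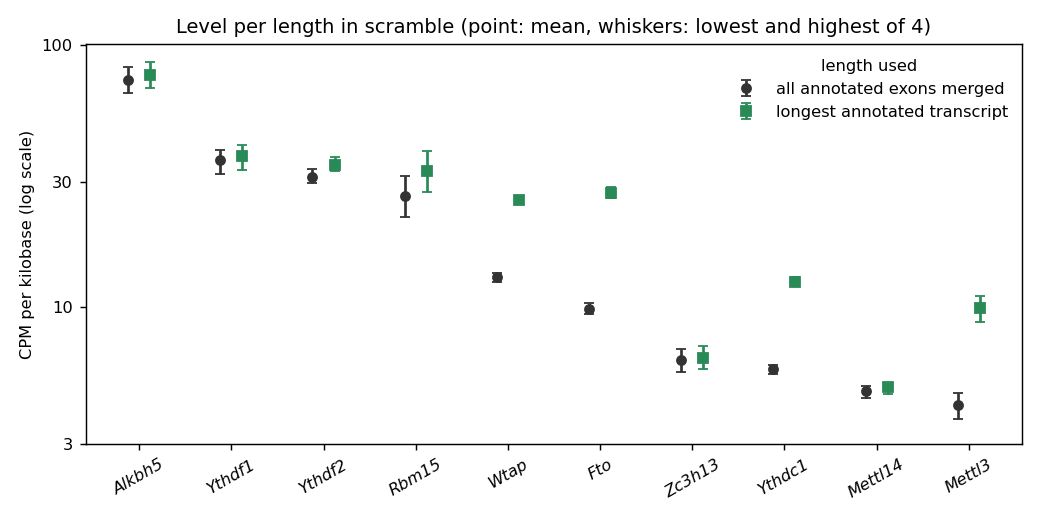
Level per length of the 10 m6A genes in the 4 scramble libraries, in CPM per kilobase on a log axis; points are means and whiskers the lowest and highest library, with the length taken from merged exons (circles) or the longest transcript (squares). Alkbh5 is highest under either length, and Wtap, Fto, Ythdc1 and Mettl3 differ most between the lengths.

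Each knockdown was then compared with scramble. No member passed the test in Rbmx knockdown and 1 of 10, Ythdf1, fell in Rbmxl1 knockdown (edgeR's quasi-likelihood test with the replicate block, Benjamini-Hochberg adjusted over 17569 genes). Over all genes 8.35% were called in Rbmx knockdown (4.16% higher, 4.19% lower) and 4.46% in Rbmxl1 knockdown (2.25% higher, 2.2% lower), and the members' counts are read against these shares. In Rbmx knockdown, 1 member (Ythdf1) had an unadjusted p under 0.05, where 24.9% of all genes did, and none was called by DESeq2, which called 15% of the genes it gave an adjusted p, or by limma-voom, which called 8.04% of all genes. In Rbmxl1 knockdown 4 did (Mettl3, Wtap, Ythdf1 and Ythdf2), against 19.8% of all genes. There limma-voom called 1 of the 10 (4.13% of all genes), and DESeq2 called 3, Mettl3, Wtap and Ythdf1 (9.73% of the genes it gave an adjusted p). The median log2 fold change of the 10 was −0.03 in Rbmx knockdown and 0.00 in Rbmxl1 knockdown, against 0.00 and 0.01 over all genes. The median size of the change regardless of sign was 0.08 and 0.10 log2 units, against 0.15 and 0.13 over all genes. The 95% intervals of the 10 changes in Rbmx knockdown lay between −0.28 (Ythdf1) and 0.25 (Mettl3, Alkbh5) on the log2 scale, that is between 0.83-fold and 1.19-fold. In Rbmxl1 knockdown the 9 members that were not called had intervals between −0.30 and 0.37. These intervals are not corrected for the number of genes, and a change within them that did not pass the test is not shown to be absent.

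**Figure D2:**
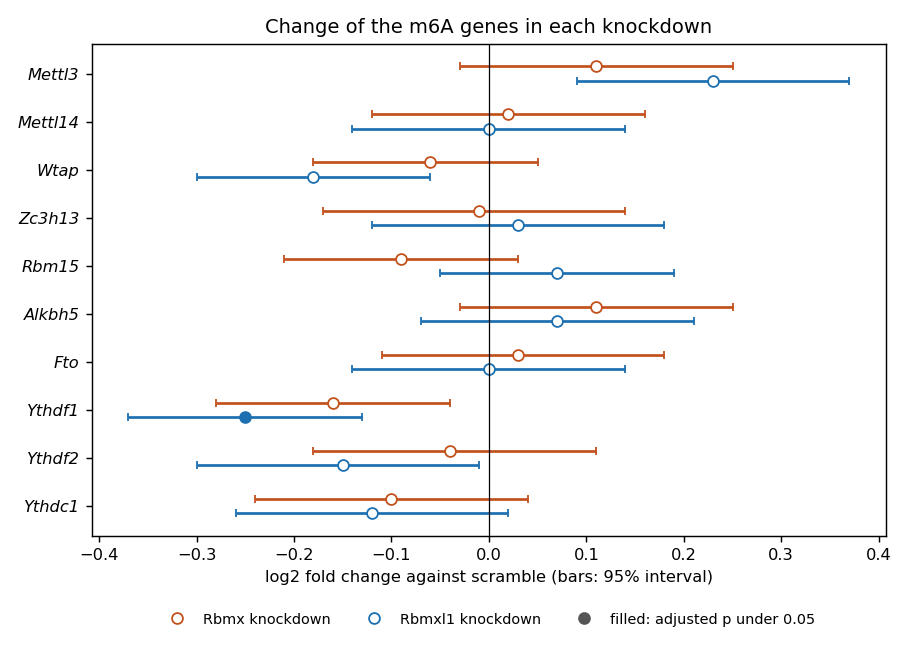
Log2 fold change of each m6A gene against scramble, from the model with the replicate block; bars are 95% intervals, orange is Rbmx knockdown and blue Rbmxl1 knockdown. The filled point, Ythdf1 in Rbmxl1 knockdown at −0.25, is the one value with an adjusted p under 0.05.

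Among the writers, Mettl3 (ENSMUSG00000022160; chromosome 14, 52294841 to 52305128, minus strand, GRCm38) encodes the catalytic subunit. It was at 18.9, 19.5, 23.7 and 23.7 CPM in scramble replicates 1 to 4. In Rbmx knockdown it was at 19.9, 20.7, 27.0 and 25.4 CPM, and in Rbmxl1 knockdown at 21.6, 24.5, 28.5 and 26.1 CPM. Each knockdown library was higher than the scramble library of its number, although the groups overlapped. The log2 fold change was 0.11 ± 0.07 (SE; adjusted p 0.318) in Rbmx knockdown and 0.23 ± 0.07 (adjusted p 0.0582) in Rbmxl1 knockdown, so neither passed the test. Under DESeq2 (adjusted p 0.0355) and with a filter of 1 CPM in 4 libraries (adjusted p 0.0478) the value in Rbmxl1 knockdown, 0.23 in both, passed. A total of 933 exonic bases of Mettl3 overlap exons of Tox4 on the opposite strand, and the strand setting of the counting is not given in the sources used here. Tox4 was at 68.6 ± 1.2 CPM in scramble and 68.5 ± 3.43 CPM in Rbmxl1 knockdown (SD, n = 4), a log2 fold change of 0.00 ± 0.06 (adjusted p 0.987). In Rbmx knockdown it was at 72.3 ± 6.49 CPM, a log2 fold change of 0.07 ± 0.06 (adjusted p 0.522).

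Mettl14 (ENSMUSG00000028114; chromosome 3, 123368297 to 123386108, minus strand), with no annotated gene on either strand across it, encodes the partner that METTL3 needs for activity. Its level was 33.4, 36.0, 37.0 and 36.1 CPM in scramble and at 33.4, 35.0, 37.8 and 36.5 CPM in Rbmxl1 knockdown, which is nearly the same range. In Rbmx knockdown it was at 29.2, 36.5, 40.5 and 39.4 CPM, with replicate 1 below and replicates 3 and 4 above all scramble libraries. Its log2 fold change was 0.02 (95% interval −0.12 to 0.16) in Rbmx knockdown and 0.00 (−0.14 to 0.14) in Rbmxl1 knockdown. The subunits of the catalytic pair thus had different values in Rbmxl1 knockdown, but the difference between them was not tested.

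Wtap (ENSMUSG00000060475; chromosome 17, 12966796 to 12994169, minus strand) encodes the adaptor that holds the methyltransferase pair in nuclear speckles. It was at 79.7, 84.6, 78.3 and 83.2 CPM in scramble and at 68.8, 70.4, 72.5 and 76.2 CPM in Rbmxl1 knockdown. These ranges did not overlap, which was so for no other member in either comparison with scramble and for 5.67% of all genes in this one (8.07% in Rbmx knockdown). The log2 fold change of −0.18 ± 0.06 had an adjusted p of 0.0791 and did not pass, except under DESeq2 (−0.18, adjusted p 0.0362). In Rbmx knockdown Wtap was at 70.0, 81.9, 78.7 and 81.5 CPM, where only replicate 1 lay below scramble (−0.06 ± 0.06, adjusted p 0.518). Of the 50-base words of its longest transcript, 9.02% also occur in the annotated gene Gm14292, so some reads may align to both.

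Zc3h13 (ENSMUSG00000022000; chromosome 14, 75284373 to 75344426, plus strand), which keeps the complex in the nucleus, was at 35.5 to 43.6 CPM in scramble, 37.2 to 40.7 in Rbmx knockdown and 37.8 to 44.0 in Rbmxl1 knockdown. Its log2 fold changes were −0.01 ± 0.07 (adjusted p 0.933) and 0.03 ± 0.07 (adjusted p 0.867). Rbm15 (ENSMUSG00000048109; chromosome 3, 107325421 to 107333673, minus strand) encodes an RNA-binding adaptor that brings the complex to its sites. It was at 164, 172, 234 and 220.3 CPM in scramble, 150.1, 166, 209 and 217 CPM in Rbmx knockdown and 179, 195, 230.4 and 219 CPM in Rbmxl1 knockdown. Replicates 3 and 4 were higher than replicates 1 and 2 in all 3 groups, and this separation was wider than any separation by knockdown. Rbm15 was lower in Rbmx knockdown in 4 of 4 same-number pairs (−0.09 ± 0.06, adjusted p 0.340), a consistency found in 34.5% of all genes in either direction. In Rbmxl1 knockdown the value was 0.07 ± 0.06 (adjusted p 0.531).

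**Figure D3:**
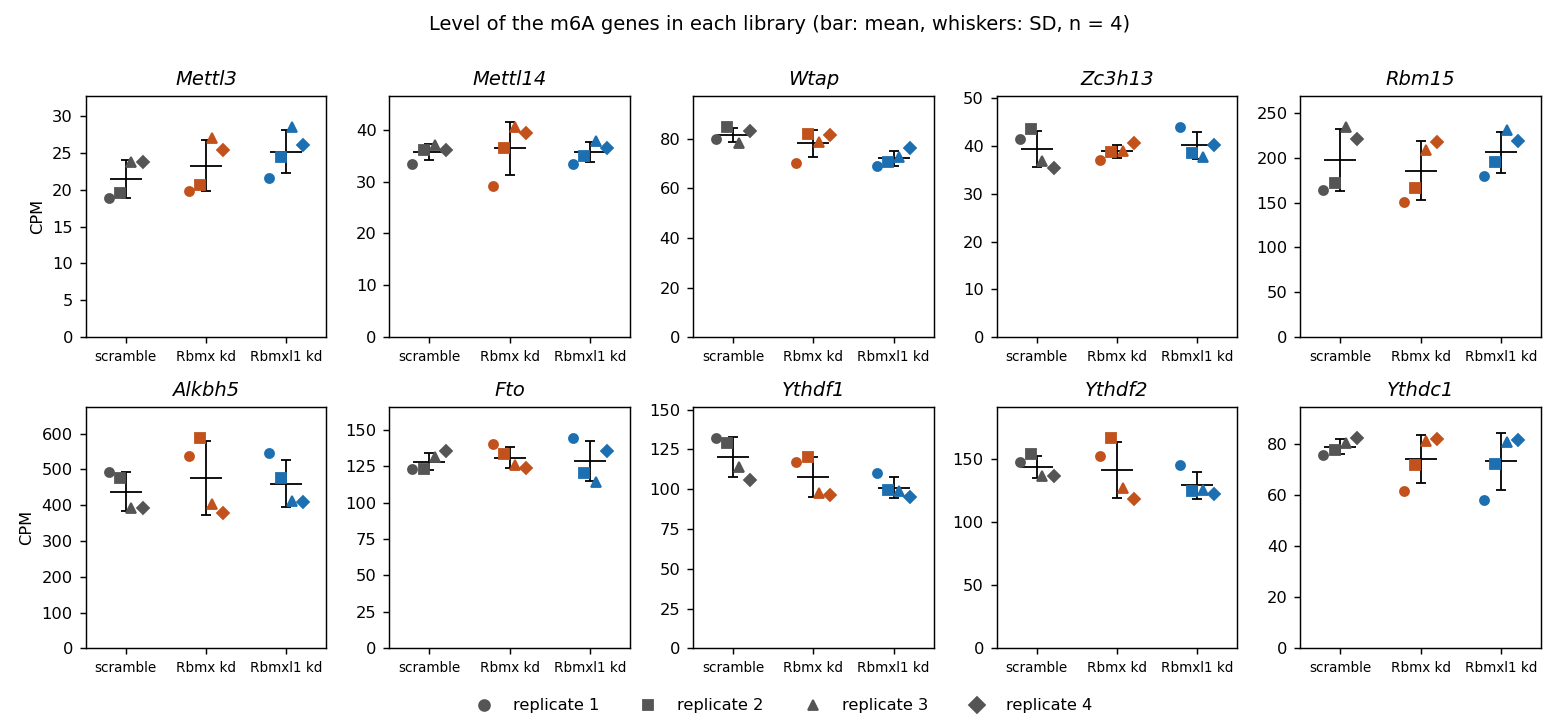
CPM of each m6A gene in each of the 12 libraries, on axes that start at 0; symbols mark the replicate number, bars the group mean and whiskers the SD (n = 4). The groups overlap in every panel except Wtap, where all Rbmxl1 knockdown libraries (68.8 to 76.2) lie below scramble (78.3 to 84.6).

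The erasers are iron-dependent dioxygenases. Alkbh5 (ENSMUSG00000042650; chromosome 11, 60536381 to 60558512, plus strand) was at 493, 476, 391 and 392 CPM in scramble. It was at 538, 587, 403 and 377 CPM in Rbmx knockdown and at 546, 477, 412 and 408 CPM in Rbmxl1 knockdown. Here too the level differed between the replicates: replicates 1 and 2 of the 3 groups lay at 476 to 587 CPM and replicates 3 and 4 at 377 to 412 CPM. The log2 fold changes were 0.11 (95% interval −0.03 to 0.25; adjusted p 0.335) in Rbmx knockdown and 0.07 (−0.07 to 0.21; adjusted p 0.590) in Rbmxl1 knockdown. Fto (ENSMUSG00000055932; chromosome 8, 91313525 to 91668439, plus strand) ranged from 123 to 135 CPM in scramble, 124 to 140.3 in Rbmx knockdown and 114 to 144 in Rbmxl1 knockdown. Its log2 fold changes of 0.03 (−0.11 to 0.18; adjusted p 0.803) and 0.00 (−0.14 to 0.14; adjusted p 0.997) were smaller than their errors.

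The cytoplasmic reader Ythdf1 (ENSMUSG00000038848; chromosome 2, 180904377 to 180920949, minus strand) was the one member called. It was at 132, 129, 114 and 106 CPM in scramble replicates 1 to 4. In Rbmxl1 knockdown it was at 110.4, 99.5, 98.9 and 95.3 CPM. In Rbmx knockdown it was at 117, 120.0, 97.8 and 96.5 CPM. Each knockdown library lay below the scramble library of its number, while the groups as a whole overlapped because replicates 3 and 4 were low in scramble as well. The level fell in Rbmxl1 knockdown, with a log2 fold change of −0.25 ± 0.06 (95% interval −0.37 to −0.13; adjusted p 0.0269), or 0.84-fold. In Rbmx knockdown the log2 fold change was −0.16 ± 0.06 (−0.28 to −0.04; adjusted p 0.0948), which did not pass. The difference between the knockdowns was 0.09 (−0.03 to 0.21; adjusted p 0.894), so the response was not shown to differ between them. Both comparisons use the same scramble libraries.

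The call for Ythdf1 in Rbmxl1 knockdown was narrow. Without a replicate block its log2 fold change was again −0.25 but the adjusted p was 0.506. That fit called 0.00569% of all genes, against 4.46% with the block. Leaving out scramble replicate 1, 2, 3 or 4, or Rbmxl1 knockdown replicate 1 or 2, gave adjusted p-values from 0.0548 to 0.0947, with log2 fold changes from −0.26 to −0.19. Those fits called from 0.705% to 5.77% of all genes. Fitted on replicates 1 and 2 alone, Ythdf1 had a log2 fold change of −0.30 (adjusted p 0.165), where 0.172% of all genes were called. Replicates 3 and 4 alone gave −0.19 (adjusted p 0.0969), where 5.53% were called. The call was also lost without any 1 replicate number in every group (adjusted p 0.0728 to 0.0940) and with only the 2 groups in the fit (adjusted p 0.0541). Of all genes, 0.57% to 3.93% were called without 1 replicate number and 2.51% with only the 2 groups. The log2 fold change of Ythdf1 kept its sign under all 27 alternatives, and 13 of them called it.

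Ythdf2 (ENSMUSG00000040025; chromosome 4, 132184912 to 132212303, minus strand), a reader that recruits deadenylases to marked transcripts, was at 147, 154, 136 and 136 CPM in scramble. In Rbmxl1 knockdown it was at 145, 124, 125 and 122 CPM, with replicates 2 to 4 below all scramble libraries. The log2 fold change of −0.15 ± 0.07 had an adjusted p of 0.228. In Rbmx knockdown it was at 152, 166, 127 and 118 CPM, that is above scramble in replicates 1 and 2 and below it in replicates 3 and 4 (−0.04 ± 0.07, adjusted p 0.781). Ythdf3, the remaining YTHDF paralog, was added after its values were seen. It was at 115 CPM in scramble, 104 in Rbmx knockdown (−0.14 ± 0.06, adjusted p 0.172) and 101 in Rbmxl1 knockdown (−0.19 ± 0.06, adjusted p 0.101). The words of the longest Ythdf1 transcript were found in no other gene, and 8.55% of those of Ythdf2 were, mostly in Gm6823, which was at 0.0812 ± 0.0552 CPM in scramble.

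The nuclear reader Ythdc1 (ENSMUSG00000035851; chromosome 5, 86804221 to 86836659, plus strand) was at 75.7, 77.7, 80.6 and 82.3 CPM in scramble. It was at 61.8, 72, 81.4 and 81.9 CPM in Rbmx knockdown and at 58.0, 72.4, 81.0 and 81.7 CPM in Rbmxl1 knockdown. Replicates 3 and 4 were level across the 3 groups, and the lower values were those of replicates 1 and 2, with replicate 1 lowest in both knockdowns. The log2 fold changes were −0.10 ± 0.06 (adjusted p 0.358) and −0.12 ± 0.06 (adjusted p 0.315). Within replicates 1 and 2 they were −0.20 and −0.23, and within replicates 3 and 4 they were 0.00 and −0.01. A test of this difference between the replicate sets did not pass for any member in either knockdown (lowest adjusted p 0.395 in Rbmx knockdown, for Zc3h13, and 0.588 in Rbmxl1 knockdown, for Ythdc1). The annotated gene Gm43055, which shares 8.88% of the words of Ythdc1, had 0 counts. In these tests 0 of 17569 genes passed in either knockdown under edgeR, with 1944 and 1468 genes at an unadjusted p under 0.05.

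**Figure D4:**
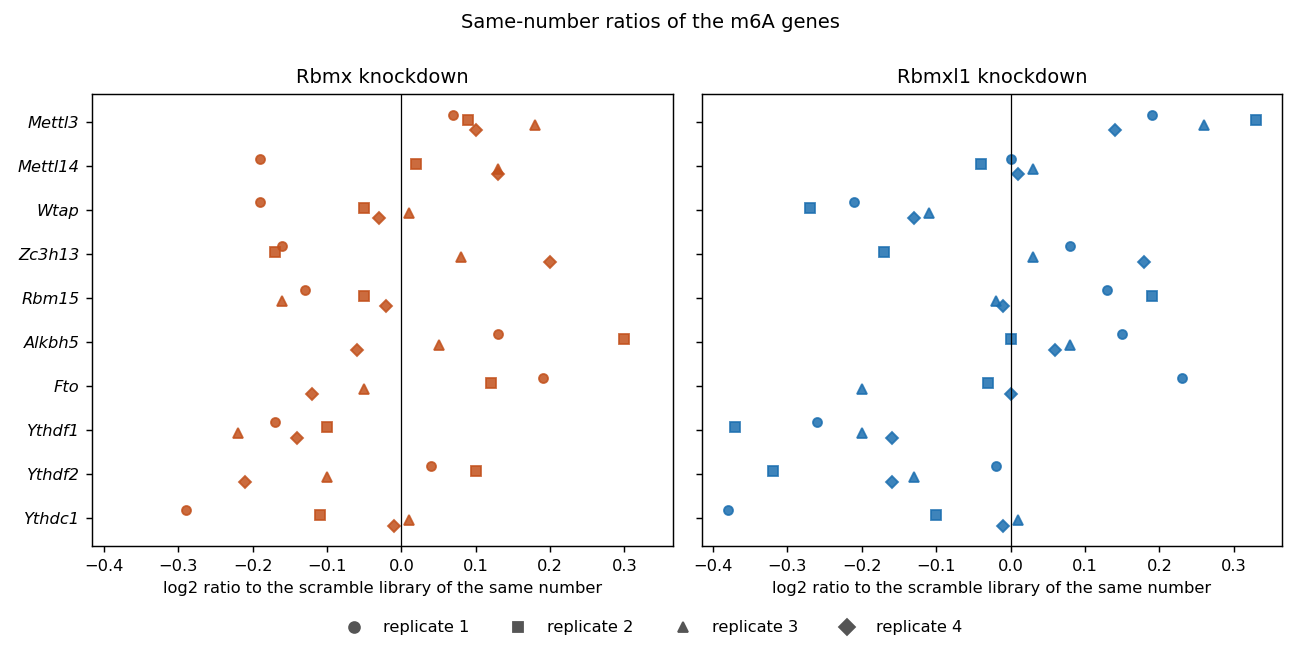
Log2 ratio of each knockdown library to the scramble library of the same replicate number for the 10 m6A genes; symbols mark the number. Ythdf1 lies to the left of 0 in all 4 pairs of both knockdowns (−0.37 to −0.10) and Mettl3 to the right (0.07 to 0.33), while Ythdc1 departs from 0 mainly in replicate 1 (−0.29 and −0.38).

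In same-number pairs, 3 members moved one way in 4 of 4 pairs in Rbmx knockdown (Mettl3, Rbm15 and Ythdf1) and 5 did in Rbmxl1 knockdown (Mettl3, Wtap, Alkbh5, Ythdf1 and Ythdf2). The shares of all genes were 34.5% and 25.9%. For several members, replicates 1 and 2 differed more from replicates 3 and 4 than a knockdown did from scramble. The groups of replicates were recognised from these data earlier, so the following values are a description without a test. Replicates 3 and 4 were above replicates 1 and 2 within each of the 3 groups for Mettl3, Mettl14, Rbm15 and Ythdc1, and below them for Alkbh5 and Ythdf1. In scramble the log2 ratio of replicates 3 and 4 to replicates 1 and 2 was 0.44 for Rbm15, 0.30 for Mettl3, −0.31 for Alkbh5 and −0.24 for Ythdf1. The last of these is close in size to the fall of Ythdf1 in Rbmxl1 knockdown. The labels do not say what the replicate numbers stand for.

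Set directly against each other, no member passed the test between the knockdowns. For the 10 genes the log2 fold change of Rbmx knockdown over Rbmxl1 knockdown ranged from −0.16 (Rbm15) to 0.12 (Ythdf2), with adjusted p-values from 0.859 to 0.976 under edgeR's quasi-likelihood test. Of all genes, 0.0114% were called in this comparison, 0.00569% in each direction. Rbm15 had an unadjusted p under 0.05, as 5.7% of all genes did, and no member had ranges apart, as 1.12% did. In same-number pairs 3 of the 10 (Mettl3, Wtap and Rbm15) moved one way in 4 of 4, as 12.2% of all genes did. DESeq2 (0.0569% of all genes) and limma-voom (0.0114%) called none of the 10, and the widest 95% intervals reached −0.28 (Rbm15) and 0.26 (Ythdf2).

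The pattern of Ythdf1, the member with the lowest p in both comparisons with scramble, was compared with 13318 other genes of at least 1 CPM. Log2 CPM values were centred on the mean of each replicate number. The most similar profiles over the 12 libraries were those of Fbxo33 (Pearson r 0.983), Rnf146 (0.974) and Cbfa2t2 (0.969). Fbxo33 encodes an F-box protein and Rnf146 a ubiquitin ligase. The points share libraries, and no p is given.

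Other genes of the pathway came from a list of 33, of which 32 were tested. Igf2bp1, which encodes a reader, had at most 1 count in a library and was not. In Rbmx knockdown 2 of the 32 fell and none rose, and in Rbmxl1 knockdown 1 fell and none rose, that is 2 and 1 of 32 where 8.35% and 4.46% of all genes were called. Libraries lay apart from scramble for 3 of the 32 in Rbmx knockdown (Virma, Mat2a and Cnot7) and 1 in Rbmxl1 knockdown (Virma). Of all genes this was so for 8.07% and 5.67%. In the writer complex, no further subunit passed. Virma, the scaffold subunit, had the lowest fold changes, at 66.4 CPM in scramble, 59.7 in Rbmx knockdown (−0.15 ± 0.05, adjusted p 0.0893) and 61.1 in Rbmxl1 knockdown (−0.12 ± 0.05, adjusted p 0.230), and its libraries did not overlap those of scramble in either. Rbm15b, the paralog of Rbm15, had the highest fold changes, 0.00 ± 0.07 and 0.02 ± 0.07 on the log2 scale. Of the methyltransferases outside this complex, and their cofactor, none passed. Zcchc4, a ribosomal RNA methyltransferase, had the lowest log2 fold change in each knockdown (−0.23 ± 0.08, adjusted p 0.0842, in Rbmx knockdown and −0.01 ± 0.08, adjusted p 0.956, in Rbmxl1 knockdown). Trmt112, the cofactor, had the highest (0.07 ± 0.07 and 0.09 ± 0.07).

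**Figure D5:**
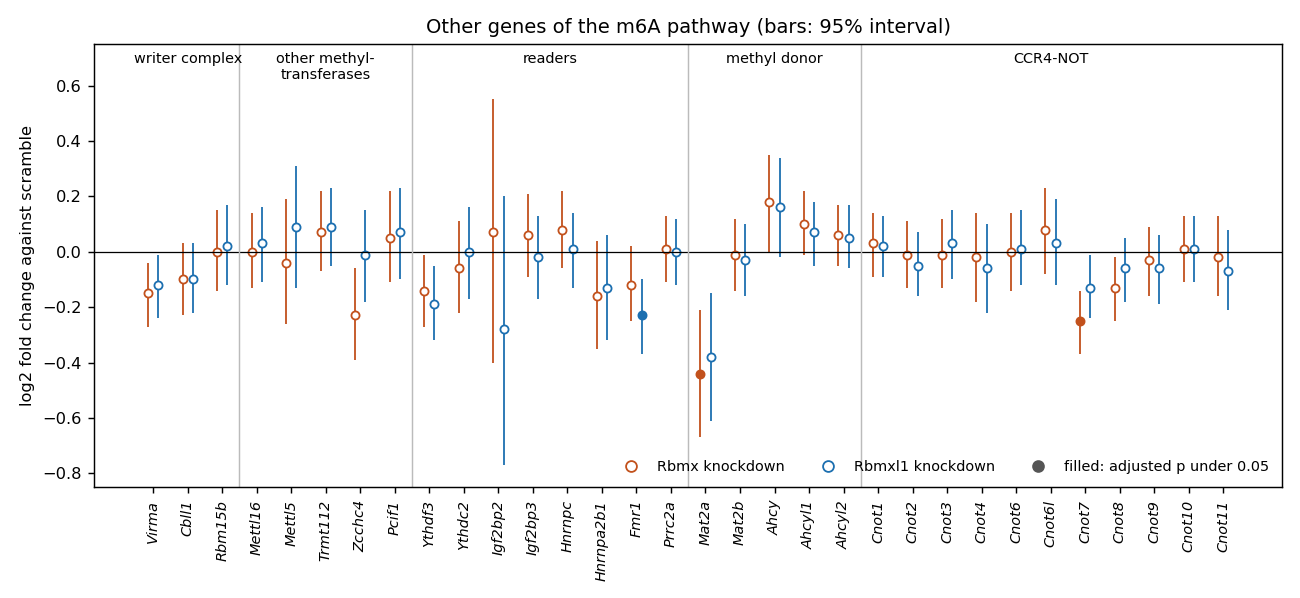
Log2 fold change against scramble of the 32 tested genes of the wider m6A pathway, by role, with 95% intervals; orange is Rbmx knockdown and blue Rbmxl1 knockdown. Filled points passed the test: Mat2a (−0.44) and Cnot7 (−0.25) in Rbmx knockdown and Fmr1 (−0.23) in Rbmxl1 knockdown.

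Mat2a had the largest change of these 32 genes. It encodes the catalytic subunit of the enzyme that makes S-adenosylmethionine, the methyl donor of every m6A writer. Its transcript is itself a known m6A substrate: the methyltransferase METTL16 marks hairpins in it, and this bears on its splicing and stability when the methyl donor is scarce. The letters TACAGAGAA and TACAGAAAA, in which METTL16 is known to act, were searched on the transcript strand of Mat2a-202 (GENCODE M21), the longest Mat2a transcript, of 3387 bases. They occurred 6 times, 5 times as the first form and 1 time as the second. They are shown because they are the letters through which an m6A methyltransferase is known to act on this called gene, with the 9 letters in capitals and 10 bases on each side.
Mat2a site at 1933: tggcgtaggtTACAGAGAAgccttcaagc
Mat2a site at 2717: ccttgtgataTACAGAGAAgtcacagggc
Mat2a site at 2896: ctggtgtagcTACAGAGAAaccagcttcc
Mat2a site at 3011: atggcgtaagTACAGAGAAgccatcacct
Mat2a site at 3122: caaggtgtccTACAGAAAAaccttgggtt
Mat2a site at 3230: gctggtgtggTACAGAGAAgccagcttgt
Positions are counted from the 5′ end of the transcript. Of 8018 genes with a coding transcript of at least 3387 bases, 9.17% held either form in the last 3387 bases, and 1, Mat2a, held 6 or more. The longest coding transcripts of the 10 members held 0. The letters were chosen for their known part in Mat2a, so its place among these genes is no independent support. A match describes the letters only, and the counts do not show whether a site was methylated or an intron retained. Mettl16 had a log2 fold change of 0.00 ± 0.06 (adjusted p 0.991) in Rbmx knockdown. In Rbmxl1 knockdown it was 0.03 ± 0.06 (adjusted p 0.874), and a part of METTL16 in the change of Mat2a was not tested.

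Mat2a (ENSMUSG00000053907; chromosome 6, 72432799 to 72439558, minus strand) was at 306, 306, 366 and 287 CPM in scramble and at 193, 221, 261 and 263 CPM in Rbmx knockdown. The ranges did not overlap, as was so for 8.07% of all genes. The log2 fold change was −0.44 ± 0.11 (95% interval −0.67 to −0.21; adjusted p 0.0221), or 0.74-fold. In Rbmxl1 knockdown Mat2a was at 162, 248, 356 and 239 CPM, lower in 4 of 4 same-number pairs but widely spread (−0.38 ± 0.11, adjusted p 0.0581). Rbmxl1 knockdown replicate 3 was the high library, and without it the value was −0.51 (adjusted p 0.0277). Without scramble replicate 1 it was −0.25 (adjusted p 0.196) and without Rbmxl1 knockdown replicate 1 it was −0.24 (adjusted p 0.201). Replicates 1 and 2 alone gave −0.59 (adjusted p 0.123) and replicates 3 and 4 alone −0.16 (adjusted p 0.362). DESeq2 called it (−0.38, adjusted p 0.00794), as did the fit with no filter on low counts (−0.38, adjusted p 1.32e-06), and limma-voom did not (adjusted p 0.0561). The knockdowns did not differ from each other beyond the error (−0.06, 95% interval −0.29 to 0.16). In Rbmx knockdown the call was lost without a replicate block (−0.43, adjusted p 0.426) and without scramble replicate 1 or 3 or Rbmx knockdown replicate 2 or 3 (adjusted p 0.0512 to 0.0952, −0.49 to −0.31). It was also lost without replicate number 2 or 3 in every group (−0.42 in both, adjusted p 0.0731 and 0.0613) and on replicates 1 and 2 alone (−0.57, adjusted p 0.124). On replicates 3 and 4 alone it was kept (−0.31, adjusted p 0.0422), and it was made under 19 of 27 alternatives. Of all genes, 8.35% were called in the main fit, 0.00569% without the block and 1.57% to 2.87% without 1 of the libraries named. Exons of Particl overlap 508 exonic bases of Mat2a on the opposite strand. Of the other genes of this list, Mat2b, Ahcy, Ahcyl1 and Ahcyl2, none passed.

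Cnot7, a deadenylase subunit of the CCR4-NOT complex to which YTHDF2 delivers marked transcripts, was at 122, 130.4, 125 and 113 CPM in scramble and at 93.2, 109, 112 and 98.4 CPM in Rbmx knockdown. Every Rbmx knockdown library was below every scramble library, and the log2 fold change was −0.25 ± 0.05 (adjusted p 0.0140). Ranges apart in either direction were found in 8.07% of all genes in Rbmx knockdown. In Rbmxl1 knockdown it was −0.13 ± 0.05 (adjusted p 0.203). The other 10 of 11 CCR4-NOT genes did not pass in either knockdown, and the list's median was −0.01 and −0.05. The call for Cnot7 was lost without a replicate block (−0.25, adjusted p 0.306) and without scramble replicate 1 or Rbmx knockdown replicate 1 (adjusted p 0.0620 and 0.0534). It was also lost without replicate number 1, 3 or 4 in every group (adjusted p 0.0533 to 0.0635), on replicates 1 and 2 alone (−0.32, adjusted p 0.131) and on replicates 3 and 4 alone (−0.18, adjusted p 0.0778). It was made under 19 of 27 alternatives. Without scramble replicate 1 or Rbmx knockdown replicate 1, 2.87% and 4.69% of all genes were called, against 8.35% in the main fit. Cnot7 shares 247 exonic bases with Zdhhc2 on the opposite strand.

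Among the other readers, Fmr1, which encodes an RNA-binding regulator of translation, was the one called, of 8 tested. It was at 34.9, 37.4, 39.6 and 37.6 CPM in scramble and at 29.6, 28.9, 36.5 and 32.7 CPM in Rbmxl1 knockdown (−0.23 ± 0.06, adjusted p 0.0491), lower in 4 of 4 same-number pairs with overlapping groups. In Rbmx knockdown the value was −0.12 ± 0.06 (adjusted p 0.276). The call was lost without any 1 of the 12 libraries (adjusted p 0.0565 to 0.157, −0.27 to −0.19), without a replicate block (adjusted p 0.567), with the replicate set (1 and 2, or 3 and 4) as the block in place of the number (−0.23, adjusted p 0.0576) and under limma-voom (adjusted p 0.0611). It was made under 3 of 27 alternatives. Without 1 library 0.705% to 5.77% of all genes were called, against 4.46% with all 12.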

How the data were processed

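The authors deposited raw counts per Ensembl gene, 1 file per library; the submitters' processing notes name STAR 2.5.3a, HTSeq 0.6.1p1 and the build mm10, with no roles. Annotation and strand setting are not given in the sources used here. The 5 rows that name no gene (52.3% to 57.4% of each file) were left out. Names, positions and lengths came from GENCODE M21 (GRCm38), which held 55141 of 55401 identifiers.

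Counts were fitted with edgeR 4.0.16 in R 4.3.3: filterByExpr (minimum count 10, minimum total 15), TMM scaling, and a quasi-likelihood model on all 12 libraries with the replicate number as a block, as the rule for these genes states. Intervals are 95% from the SE and the model's degrees of freedom. DESeq2 1.42.0 and limma 3.58.1 were alternatives. Log2 CPM values centred on group means correlated at r 0.20 to 0.52 in the 12 same-number pairs of libraries, at 0.10 to 0.43 between other numbers of the same set (1 with 2, 3 with 4) and at −0.57 to −0.13 across the sets. Every same-number pair exceeded 0.1, so the numbers were taken as pairing the samples, but these ranges overlap and do not separate the number from the set. The labels do not say what the numbers stand for, and if they mark no separate cultures, p-values measure technical spread. Members counted 824 to 27180 reads per library, a counting error of 3.48% to 0.607%.

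The members, lists and alternatives were chosen with earlier results of these data known. All 10 members are named; other genes are named where called, or as the highest and lowest of a list with no call, and the 3 profiles most like the member with the lowest p. Outside this rule, Ythdf3 was named after its values were seen, Igf2bp1 as the gene not tested, and Mettl16 beside the Mat2a sites. The other methyl donor genes were named to complete their list, and overlapping or similar genes and markers beside the values they touch.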

Additional observations from a re-analysis of the deposited data

Results flagged for a closer look

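The level of Ythdf2 in Rbmxl1 knockdown replicate 1, at 145 CPM, stood apart from the other 3 libraries of its group, which lay at 122 to 125 CPM. It was the 1 group set apart in this way of 39 examined (13 genes in 3 groups), where chance alone marks about 1 in 20.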

How the results depend on the processing

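The count of members called in Rbmxl1 knockdown was 1 with the replicate block (4.46% of all genes called) and 0 without it (0.00569%). With a filter of 1 CPM in 4 libraries it was 2 (6.43%), and under DESeq2 it was 3 (9.73%). The count was 0 within replicates 1 and 2 (0.172%), 0 within replicates 3 and 4 (5.53%), and 0 with only the 2 groups compared in the fit (2.51%). It was 0 whichever replicate number was left out of every group, where 0.57% to 3.93% of all genes were called. When 1 library was left out it ranged from 0 to 1, where 0.705% to 5.77% were called. In Rbmx knockdown the count of 0 became 1 (Ythdf1, adjusted p 0.0494) with only the 2 groups compared, where 12.9% of all genes were called. It was 0 under each of the other 26 alternatives, the fit without the block included. Those called from 0.00569% of genes (no block) to 15% (DESeq2), so in some of them 0 of 10 says little. The direct comparison gave 0 under all 27, where 0.0111% to 0.271% of all genes were called. The block changed no other call of a member. Without the block, 1 gene of all was called in each knockdown, against 1467 in Rbmx knockdown and 783 in Rbmxl1 knockdown with it. The log2 fold changes of Mettl3, Wtap and Ythdf1 kept their sign in both knockdowns under all 27 alternatives, ranging from 0.19 to 0.27, −0.23 to −0.13 and −0.30 to −0.19 in Rbmxl1 knockdown. No called value changed sign. Those of Mettl14, Zc3h13 and Fto, which lie near 0, changed sign under several alternatives. Ythdf2 in Rbmx knockdown kept its sign under 24 of 27 (−0.16 to 0.08). Alkbh5 and Ythdc1 in Rbmx knockdown and Rbm15 in Rbmxl1 knockdown kept theirs under 26 of 27. The members had at least 824 reads in every library, a counting error of at most 3.48%.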
